A study of Mus musculus with 26 samples.

Results

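Embryonic neural progenitors were compared after 72 h of differentiation in serum with the same kind of cells at 0 h, both without TNF. The comparison rests on 6 of the 26 Affymetrix mouse gene arrays of the series, 3 titled as control at 72 h and 3 titled as control at 0 h. All 35556 probe sets on the array entered the fit, and 23410 of them had a gene symbol. Results are given for 19938 genes, each read from 1 probe set with a single symbol. The cells were neurospheres (NSPs) from the ventricular zone of C57BL/6J mouse embryos at embryonic day 14, which the methods of the study describe as grown in a medium with EGF and without serum. The cells of 72 h had been kept for that time on poly-L-ornithine in DMEM with 10% fetal bovine serum, without TNF. The cells of 0 h are known by their time alone, because the labels give the same cell type, astrocytes derived from progenitors, to both groups. No gene of the mice was altered and no agent beyond the medium was added in either group. The series calls its replicates biological, but nothing names the embryos or cultures behind each array. The p-values rest on the spread between arrays within groups, pooled over all 26 arrays of the series, and this spread may be technical.

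Neural progenitors of the ventricular zone are kept dividing by growth factors such as EGF, through the ERK kinase cascade, and by Notch signalling between neighbouring cells. When EGF is withdrawn and serum is given, such cells leave the cell cycle and many take up astrocyte features, among them the filament protein Gfap. Cytokines of the interleukin-6 family acting through JAK and STAT3, and bone morphogenetic proteins (BMPs) acting through SMAD factors, are known to drive astrocyte genes. Serum also activates genes of the actin cytoskeleton through serum response factor (SRF), and cultured astrocytes in serum often express genes of reactive astrocytes.

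The deposited values are log2 signals after RMA, and a difference of 1 is a 2-fold difference in signal. Array medians of the series were 7.54 to 7.76. Differences are given as 72 h minus 0 h with their standard error (SE), from limma, and a gene passed the test when its q-value was under 0.05. At 72 h, 2905 genes were higher (14.6% of the genes) and 2231 were lower (11.2%). With a log2 difference of at least 1 in size as a further condition, 782 genes were higher (3.92%) and 387 were lower (1.94%). The 3 arrays of 72 h lay entirely above the 3 arrays of 0 h for 3260 genes (16.4%) and entirely below them for 3048 genes (15.3%). The median difference over all genes was −0.08. These shares are the background for the counts over gene lists given below.

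Arrays of 72 h resembled each other more closely (Pearson's r of 0.992 to 0.996 between arrays) than arrays of 0 h (0.956 to 0.978), and no 2 arrays held identical values. The median SD over genes was 0.0906 at 72 h and 0.254 at 0 h. Each SE and q-value uses a spread pooled over all 26 arrays, so for genes that vary more at 0 h they can overstate the precision. Counts from the 6 arrays alone are given at the end. Replicate numbers were taken to pair the arrays, on correlations of 0.201 to 0.258 between the deviations of same-numbered arrays. The main fit nevertheless held no block, because the methods of the study name none. Counts, SEs and q-values given without mention of the block therefore ignore the pairing. The labels name no shared origin. With the replicate number as a block in the fit 3635 genes were higher (18.2%) and 4078 were lower (20.5%). All 5136 genes that passed without the block also passed with it. Leaving out single arrays gave 2362 genes higher (11.8%) and 1478 lower (7.41%) without replicate 1 of 72 h. Without replicate 2 of 72 h they were 2179 (10.9%) and 1381 (6.93%), and without replicate 3 of 72 h 2355 (11.8%) and 1566 (7.85%). Without replicate 1 of 0 h the counts were 2661 (13.3%) and 2438 (12.2%). Without replicate 2 of 0 h they were 2823 (14.2%) and 2276 (11.4%), and without replicate 3 of 0 h 3072 (15.4%) and 2905 (14.6%).

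The 0 h arrays differed among themselves in the genes of cell division. Over 49 genes of mitosis, the mean log2 signal was 7.08, 7.76 and 7.09 in replicates 1, 2 and 3 at 72 h, and 7.32, 10.88 and 9.70 in replicates 1, 2 and 3 at 0 h. Replicate 1 of 0 h thus lay in the range of the 72 h arrays, and the other two 0 h arrays lay above it. Replicate 2 of 0 h also stood apart in astrocyte and Notch genes, such as *Aqp4* (9.55, against 11.63 and 11.27 in replicates 1 and 3 of 0 h) and *Hes5* (9.91, against 11.84 and 11.95). Both arrays were kept, and values without one of them are given beside results that it moved most. Values of 3 arrays are in the order of replicates 1, 2 and 3 throughout.

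Several of the genes that rose most at 72 h lay below the array medians in every 0 h array. *Elobl* had 13.75, 13.10 and 13.81 at 72 h, against 6.31, 6.44 and 6.26 at 0 h, a log2 difference of 7.21 ± 0.331 (SE, limma q = 3.96e-12). *Plscr2*, a member of the phospholipid scramblase family, had 11.58, 11.40 and 11.69 at 72 h, against 5.64, 5.79 and 5.12 at 0 h (6.04 ± 0.217, q = 7.67e-14). In each the arrays of both times were far apart and varied little. *Glycam1*, a mucin-like glycoprotein known as a ligand of L-selectin, had 12.72, 11.88 and 13.10 at 72 h, against 6.84, 6.80 and 6.88 at 0 h (5.73 ± 0.365, q = 5.56e-10). *Ogn*, a small leucine-rich proteoglycan, differed by 5.21, and *Cd59a*, a membrane inhibitor of the complement attack complex, by 4.96. *Hspb8*, a small heat shock protein, had 13.10, 13.40 and 13.22 at 72 h, against 7.95, 8.52 and 8.15 at 0 h (5.04 ± 0.147, q = 3.69e-15), which is a 32.8-fold difference. The protease gene *Bace2* (4.41), the membrane protein gene *Tm4sf1* (4.13), the aldo-keto reductase gene *Akr1c14* (4.0) and the caspase gene *Casp12* (3.91) were also among the 15 highest, and all of these passed with each of the 6 arrays left out.

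*Fbln2*, a fibulin of the extracellular matrix, had 7.41, 7.40 and 7.43 at 72 h, against 10.10, 11.89 and 11.33 at 0 h (−3.69 ± 0.434, limma q = 1.75e-06). *Nptx1*, a neuronal pentraxin, had 7.46, 7.52 and 7.39 at 72 h, against 10.29, 11.91 and 10.99 at 0 h (−3.61 ± 0.408, q = 1.11e-06). For both, the 72 h arrays were nearly equal and the 0 h arrays spread over more than 1 log2 unit. *Alpl*, the tissue-nonspecific alkaline phosphatase, had 7.36, 7.60 and 7.42 at 72 h, against 10.42, 10.62 and 10.89 at 0 h (−3.18 ± 0.245, q = 6.11e-09). The kinase gene *Prkcb* fell by 3.06, the semaphorin gene *Sema5a* by 2.87, the Rap1 regulator *Rap1gap* by 2.82, the WNT receptor gene *Fzd9* by 2.74, the actin oxidase gene *Mical2* by 2.74 and the corepressor gene *Rcor2* by 2.67. The cardiac actin gene *Actc1* had 8.27, 8.23 and 8.37 at 72 h, against 11.90, 9.36 and 12.08 at 0 h, and its mean at 6 h was 12.77. Of the 15 lowest, *Knstrn* (a mitotic spindle protein), *Pimreg* and *Ccnb2* (cyclin B2) lost the call without replicate 2 of 0 h, at q = 0.0523, 0.0936 and 0.0708, with differences of −2.35, −2.09 and −1.95. *Pimreg* also missed it without replicate 1 or 3 of 72 h (q = 0.0605 and 0.0569), and *Ccnb2* without replicate 3 of 72 h (q = 0.0522).

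**Figure D1:**
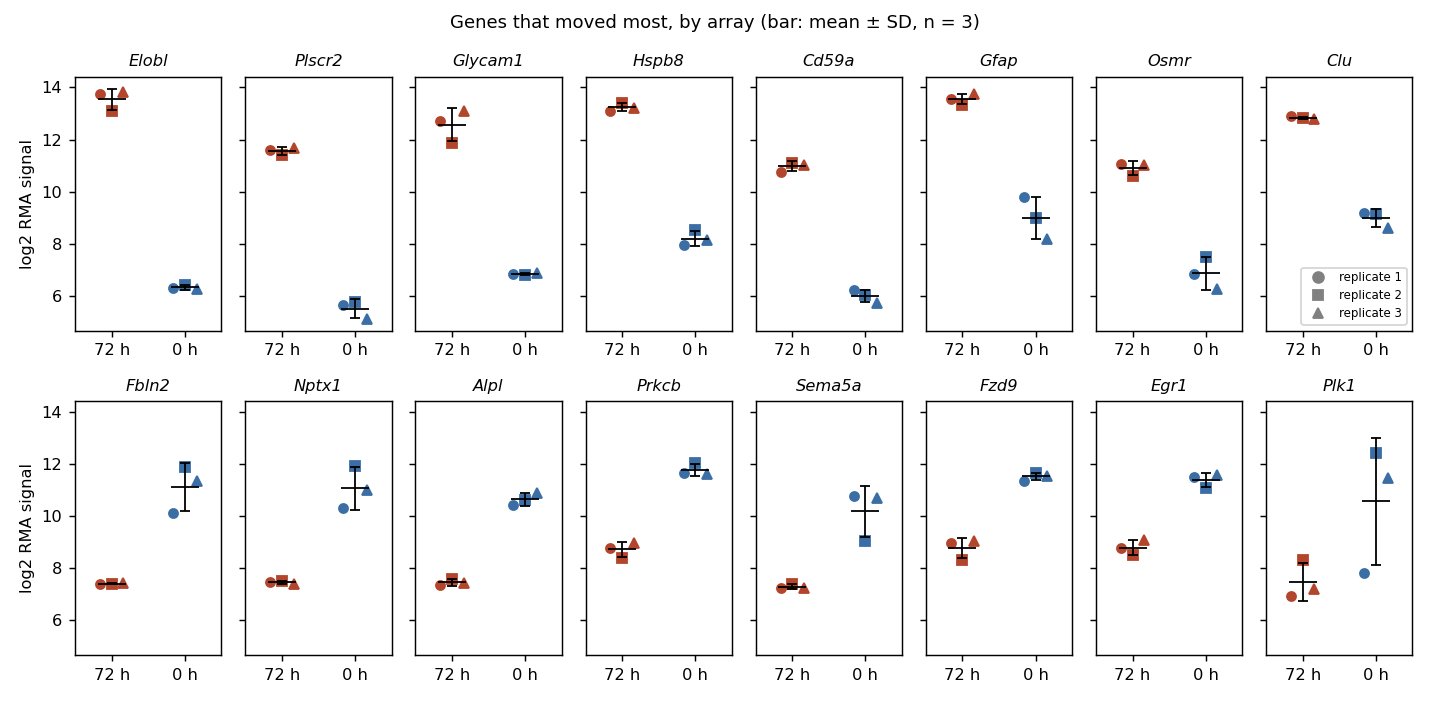
Log2 RMA signal of 16 genes on each array, with 72 h (red) left of 0 h (blue) in each panel. Symbols mark the replicate, and bars are the mean ± SD of 3 arrays. The upper panels hold genes that rose and the lower panels genes that fell. *Elobl* lies at 13.10 or above in every 72 h array and at 6.44 or below in every 0 h array, while *Plk1* overlaps through replicate 1 of 0 h at 7.80.

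Genes were grouped into 44 lists, of which 1049 of 1110 genes were measured. The share of members that rose was furthest above the background of 14.6% for genes of reactive astrocytes, ependymal cells, the lysosome and glycogen metabolism and for contractile genes. The share that fell was furthest above the background of 11.2% for growth factor and ERK feedback, Notch signalling, cholesterol synthesis, serine synthesis with ATF4 targets, and mitosis. The lists were not tested as sets.

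**Figure D2:**
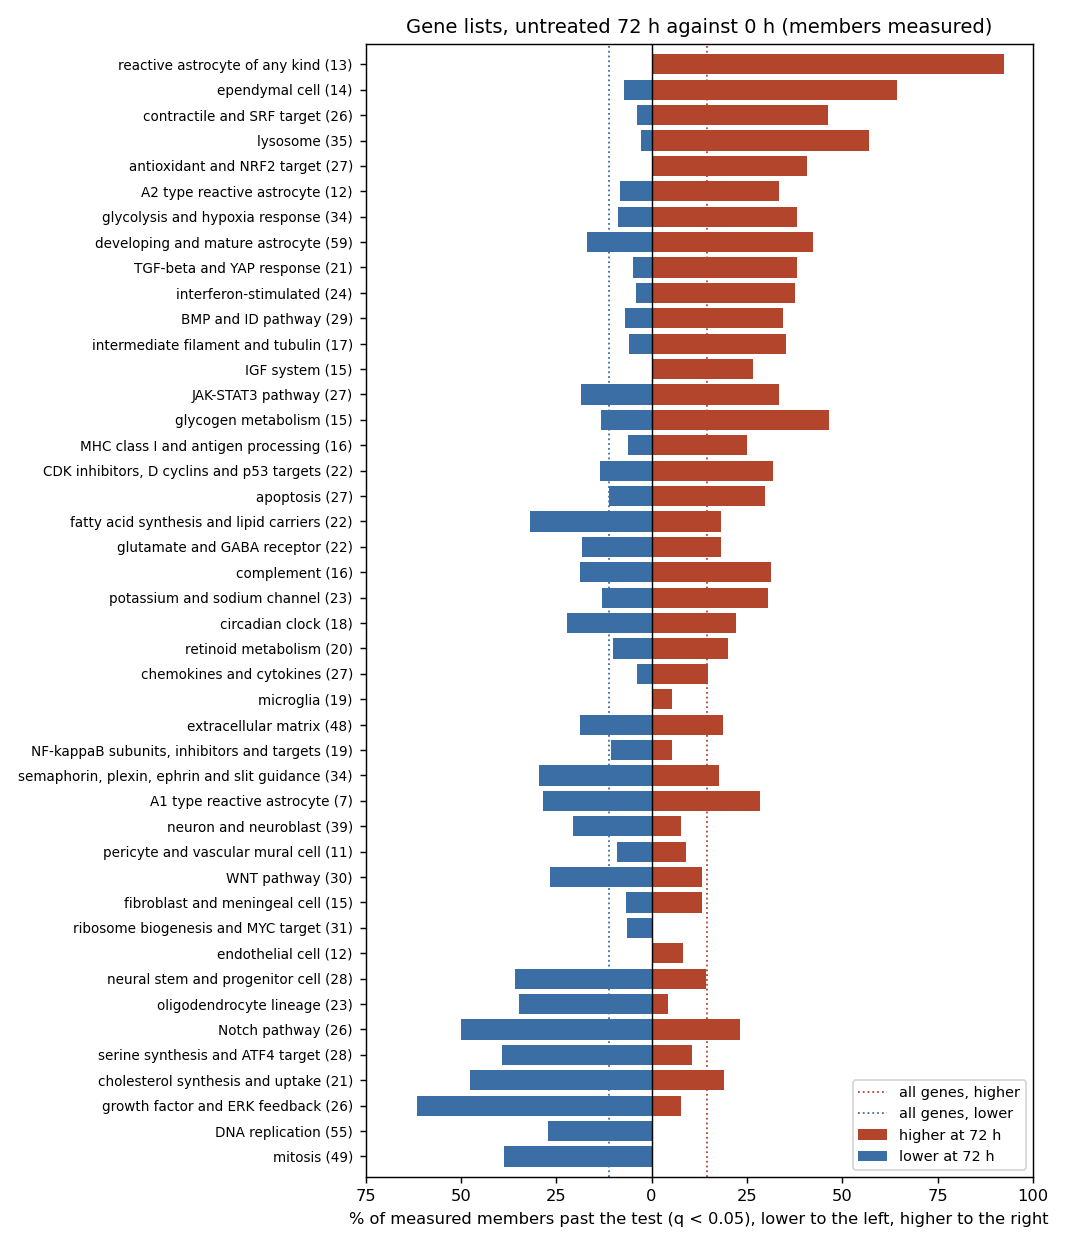
Share of the measured members of each gene list that were higher (red, to the right) or lower (blue, to the left) at 72 h than at 0 h, by limma with a q-value under 0.05. The number of members measured is in parentheses, lists are ordered by their median log2 difference, and dotted lines are the shares over all genes (14.6% higher, 11.2% lower). The list of reactive astrocyte genes reaches 92.3% higher, and growth factor and ERK feedback reaches 61.5% lower.

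More astrocyte genes rose than fell at 72 h, though not all of the defining ones passed. Of 59 measured genes of developing and mature astrocytes, 25 rose (42.4%), 10 fell (16.9%) and 24 did not pass, with a median difference of 0.27. *Gfap*, the filament protein of astrocytes, had 13.55, 13.34 and 13.73 at 72 h, against 9.81, 9.0 and 8.2 at 0 h. Its difference was 4.54 ± 0.262 (SE, limma q = 1.51e-10), a 23.3-fold higher signal, with no overlap between arrays. *Clu*, the secreted chaperone clusterin, had 12.89, 12.81 and 12.79 at 72 h, against 9.20, 9.15 and 8.60 at 0 h (3.85 ± 0.194, q = 1.79e-11). *Slc14a1*, a urea transporter, had 11.83, 10.10 and 11.83 at 72 h, against 7.86, 6.89 and 7.68 at 0 h (3.78 ± 0.413, q = 7.04e-07). *Aqp4*, the water channel of astrocyte endfeet, had 12.98, 12.97 and 13.13 at 72 h, against 11.63, 9.55 and 11.27 at 0 h (2.21 ± 0.319, q = 2.08e-05). Its 0 h arrays ranged over more than 2 log2 units, yet all of them were below the 72 h arrays. *Cd44*, a hyaluronan receptor, rose by 1.59 and the potassium channel gene *Kcnk1* by 1.23.

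Other defining astrocyte markers lay above the array medians at both times and did not pass. The glutamate transporter gene *Slc1a3* had 13.26, 13.21 and 13.37 at 72 h, against 13.33, 13.03 and 13.13 at 0 h (q = 0.228). *Slc1a2*, the other main glutamate transporter of astrocytes, had 10.83, 10.63 and 10.88 at 72 h, against 11.52, 10.56 and 11.01 at 0 h (q = 0.208). The calcium-binding protein gene *S100b* had 8.90, 9.37 and 9.87 at 72 h, against 8.96, 9.56 and 9.70 at 0 h (q = 0.471). For these 3 genes the arrays of both times overlapped. *Aldh1l1*, a folate enzyme used as an astrocyte marker, had 11.09, 10.95 and 10.83 at 72 h, against 11.71, 10.94 and 11.45 at 0 h, and its difference of −0.41 missed the threshold (q = 0.0678) but passed it with the replicate block (q = 0.0425). Among the members that fell, *Cyp4f15* differed by −2.19, the milk fat globule gene *Mfge8*, which bridges phagocytes to dying cells, by −2.0, and the transsulfuration enzyme gene *Cbs* by −1.4. Of the 25 that rose, 21 passed with each of the 6 arrays left out in turn, and of the 10 that fell 7 did. Taking out replicate 2 of 0 h gave 22 higher and 16 lower with a median of 0.07, and the median was 0.41 without replicate 1 of 0 h and 0.44 without replicate 2 of 72 h. In bulk samples such as these, fewer cells of a type and less RNA per cell cannot be told apart.

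Every gene listed for reactive astrocytes of any kind was above its 0 h mean at 72 h, and 12 of 13 rose (92.3%, median difference 2.17). *Osmr*, the oncostatin M receptor, had 11.07, 10.59 and 11.02 at 72 h, against 6.86, 7.5 and 6.26 at 0 h (4.02 ± 0.260, limma q = 6.48e-10). The serine protease inhibitor gene *Serpina3n* had 11.90, 11.04 and 12.10 at 72 h, against 7.29, 8.84 and 7.09 at 0 h (3.94 ± 0.627, q = 6.41e-05). The siderophore-binding protein gene *Lcn2* had 9.39, 8.49 and 10.05 at 72 h, against 7.10, 6.56 and 6.19 at 0 h (2.69 ± 0.348, q = 5.65e-06). In all 3 genes replicate 2 gave the lowest array of 72 h. *S1pr3*, a sphingosine 1-phosphate receptor, rose by 3.3, and *Cp*, the copper-carrying ceruloplasmin, by 2.17. *Timp1*, an inhibitor of metalloproteinases, was the exception, with 8.42, 7.98 and 8.34 at 72 h and 6.96, 8.79 and 7.07 at 0 h (q = 0.195). Of the 12, 11 passed with each of the 6 arrays left out.

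Of the smaller lists, 2 of 7 genes linked to the reactive state called A1 rose, *Serping1* (2.77), an inhibitor of complement C1, and the proteoglycan core gene *Srgn* (2.24). *Fkbp5*, a cochaperone of the glucocorticoid receptor, fell by 0.96 (0.45 without replicate 2 of 0 h) and *Fbln5* by 0.32 in the same list, and *Fbln5* did not pass without any one of the 72 h arrays or without replicate 1 or 3 of 0 h. Of 12 genes linked to the state called A2, 4 rose, among them *Tm4sf1* (4.13), the cytokine gene *Clcf1* (1.84) and *Cd109* (1.48), and 1 fell, the glycosyltransferase gene *B3gnt5* (−0.95). Several lists share members, so their counts are not independent. Astrocyte and reactive astrocyte lists share *Gfap* and *Cd44*. The progenitor list shares *Dll1*, *Dll3* and *Hes5* with the Notch list, *Egfr* and *Etv1* with the ERK feedback list, and *Vim* with the reactive astrocyte list.

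Progenitor genes fell more often than they rose. Of 28 measured, 10 fell (35.7%, against 11.2% of all genes) and 4 rose (14.3%, near the 14.6% of all genes). The median difference was −0.25, and 20 were below their 0 h mean. The receptor gene *Egfr* had 11.81, 11.46 and 11.83 at 72 h, against 13.04, 12.52 and 13.06 at 0 h (−1.17 ± 0.147, limma q = 3.98e-06), so that its 72 h arrays were lower but still far above the array medians. The Notch ligand genes *Dll1* and *Dll3* and the Notch effector gene *Hes5* fell by 2.23, 1.86 and 2.17. The intermediate filament gene *Nes* had 12, 12.21 and 12.21 at 72 h, against 10.44, 11.74 and 11.29 at 0 h, a rise of 0.98 ± 0.220 (q = 0.00156), or of 0.62 (q = 0.0091) without replicate 1 of 0 h. *Prom1*, which encodes the surface antigen CD133, rose by 0.98 and the RNA-binding protein gene *Msi1* by 0.91. *Sox2*, a transcription factor of neural stem cells, had 12.33, 12.13 and 12.34 at 72 h and 12.51, 11.89 and 12.53 at 0 h (q = 0.425). The fatty acid binding protein gene *Fabp7* was between 14.11 and 14.17 at 72 h and between 14.02 and 14.16 at 0 h (q = 0.380). All 14 calls held with each of the 6 arrays left out.

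Genes that ERK signalling switches on, and the feedback inhibitors among them, fell. Of 26 measured, 16 fell (61.5%) and 2 rose, with a median of −0.69 and within-replicate medians of −0.57, −0.79 and −0.74. *Egr1*, an immediate early transcription factor, had 8.78, 8.51 and 9.09 at 72 h, against 11.51, 11.06 and 11.58 at 0 h (−2.59 ± 0.208, limma q = 1.12e-08). The related *Egr2* had 7.62, 7.74 and 7.84 at 72 h, against 9.49, 10.15 and 10.14 at 0 h (−2.19 ± 0.238, q = 6.60e-07). *Etv4*, an ETS transcription factor induced by receptor tyrosine kinases, had 7.43, 7.47 and 7.43 at 72 h, against 8.69, 10.05 and 9.02 at 0 h (−1.81 ± 0.252, q = 1.37e-05). None of these 3 genes had overlapping arrays. *Spry2*, an inhibitor of receptor tyrosine kinase signalling, fell by 1.4. The 2 members that rose were the EGF receptor ligand *Hbegf* (1.70 ± 0.329, q = 0.000431) and *Spsb1* (0.85). Of the 16, 11 passed with each array left out.

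Notch pathway genes fell more often than they rose. Of 26 measured, 13 fell (50.0%) and 6 rose (23.1%), with a median of −0.29. The ligand gene *Dll1* had 9.04, 8.07 and 9.35 at 72 h, against 11.63, 9.90 and 11.61 at 0 h (−2.23 ± 0.447, limma q = 0.000613). The effector gene *Hes5* had 9.09, 9.0 and 9.09 at 72 h, against 11.84, 9.91 and 11.95 at 0 h (−2.17 ± 0.409, q = 0.000342). Both were lower in every 72 h array, and in both replicate 2 was the lowest array at 0 h. *Nrarp*, a target and feedback regulator of Notch, fell by 2.36, the receptor gene *Notch3* by 1.06 and the effector gene *Hes1* by 0.77. The Notch effector *Hey1* went the other way, with 12.27, 12.42 and 12.43 at 72 h, against 11.34, 10.88 and 11.58 at 0 h (1.11 ± 0.132, q = 2.06e-06). *Numb*, an inhibitor of Notch, rose by 0.68. Taking out replicate 2 of 0 h gave 3 higher and 14 lower.

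**Figure D3:**
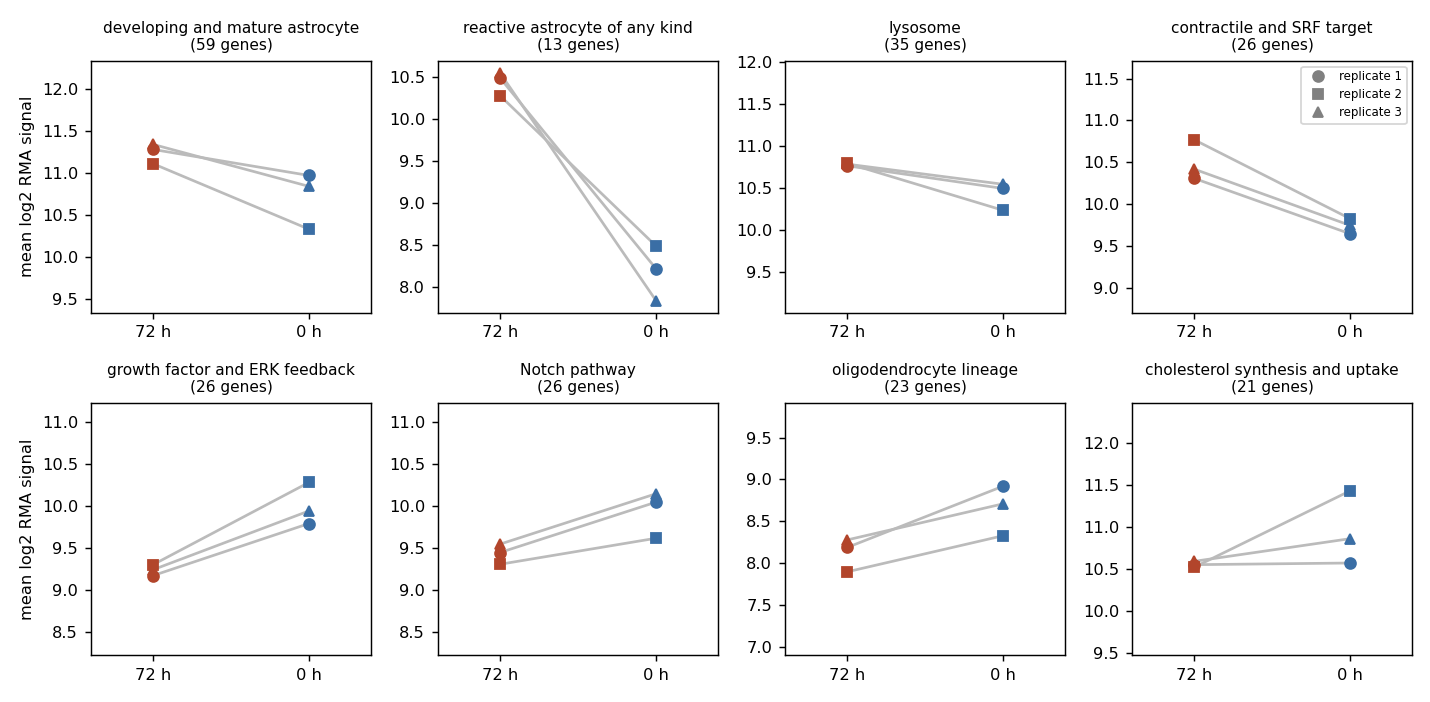
Mean log2 RMA signal over the members of 8 gene lists on each array, with 72 h (red) left of 0 h (blue). Grey lines join arrays of the same replicate number, and every panel spans the same number of log2 units. The 3 arrays of 72 h lie above those of 0 h in the upper panels (10.49, 10.28 and 10.55 against 8.22, 8.49 and 7.84 for reactive astrocyte genes). They lie below them in the lower panels, except for cholesterol genes, where replicate 3 of 72 h (10.59) is level with replicate 1 of 0 h (10.57).

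The genes of cell division were lower on average at 72 h, with a size set by which 0 h arrays were used. Of 49 genes of mitosis, 19 fell (38.8%), none rose, and 47 were below their 0 h mean, with a median of −2.18. The kinase gene *Plk1* had 6.93, 8.30 and 7.21 at 72 h, against 7.80, 12.43 and 11.45 at 0 h (−3.08 ± 1.18, limma q = 0.0391). *Mki67*, which encodes the proliferation antigen Ki-67, had 6.42, 7.91 and 6.71 at 72 h, against 7.71, 11.92 and 10.37 at 0 h (−2.99 ± 1.09, q = 0.0323). In both genes replicate 1 of 0 h lay below replicate 2 of 72 h, while replicates 2 and 3 of 0 h lay above all 72 h arrays. With the replicate block both had q = 0.00511. Within replicates 1, 2 and 3, *Mki67* differed by −1.29, −4.01 and −3.66. *Mki67* did not pass without replicate 1 or 3 of 72 h (q = 0.0980 and 0.0876) or without replicate 2 or 3 of 0 h (q = 0.119 and 0.0526). *Plk1* passed only without replicate 1 of 0 h (−4.46, q = 0.00618), with q = 0.0578 to 0.127 when any other array was left out.

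Over the whole mitosis list, the block gave 43 genes lower and 1 higher, and leaving out replicate 1 of 0 h gave 45 lower. Without replicate 2 of 0 h, 1 gene was lower and 1 higher with a median of −1.33, and without replicate 3 of 0 h 8 were lower. Without replicates 1, 2 or 3 of 72 h there were 2, 6 and 1 lower. The median difference within replicates 1, 2 and 3 was −0.33, −3.32 and −2.84. *Cdc25b*, a phosphatase that activates the mitotic cyclin-dependent kinase, was the single member that passed in every one of these fits, with 7.86, 7.77 and 7.89 at 72 h, against 8.74, 10.00 and 9.55 at 0 h (−1.59 ± 0.252, limma q = 6.23e-05). The mean over the list stayed near the 0 h value at 6 h (7.19, 10.96 and 9.54) and was 7.12, 7.77 and 7.22 at 24 h and 7.13, 7.61 and 7.12 at 48 h. Replicate 1 was low at every time, and replicates 2 and 3 were low from 24 h on.

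Genes of DNA replication had the same order of arrays. Of 55, 15 fell (27.3%), none rose, and the median was −1.01. The median within replicates 1, 2 and 3 was 0.03, −2.08 and −0.69. *E2f8*, a repressor of the E2F family, had 6.31, 6.70 and 6.29 at 72 h, against 7.27, 10.80 and 8.89 at 0 h (−2.55 ± 0.690, limma q = 0.00625). The helicase subunit gene *Mcm7* had 9.18, 9.06 and 9.27 at 72 h, against 9.64, 11.60 and 10.41 at 0 h (−1.38 ± 0.375, q = 0.00645). Both passed with each array left out, and no other member did, but without replicate 2 of 0 h their differences were −1.65 for *E2f8* (q = 0.0436) and −0.86 for *Mcm7* (q = 0.0446). The block gave 32 lower, and leaving out replicates 1, 2 and 3 of 0 h gave 42, 2 and 21 lower, with 1 member higher and a median of −0.36 without replicate 2. Leaving out any one of the 72 h arrays gave 6 lower. Of 31 genes of ribosome biogenesis and MYC targets, 2 fell and none rose, and the mean over the list was 9.47, 9.36 and 9.53 at 72 h, against 9.10, 10.49 and 9.36 at 0 h. Replicate 2 of 0 h was thus the highest array and replicate 1 the lowest. Without replicate 1 of 0 h 8 of these genes fell, without replicate 3 of 0 h 6 fell, and without replicate 2 of 0 h 6 rose. The block gave 5 lower, and no member fell without any one of the 72 h arrays.

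**Figure D4:**
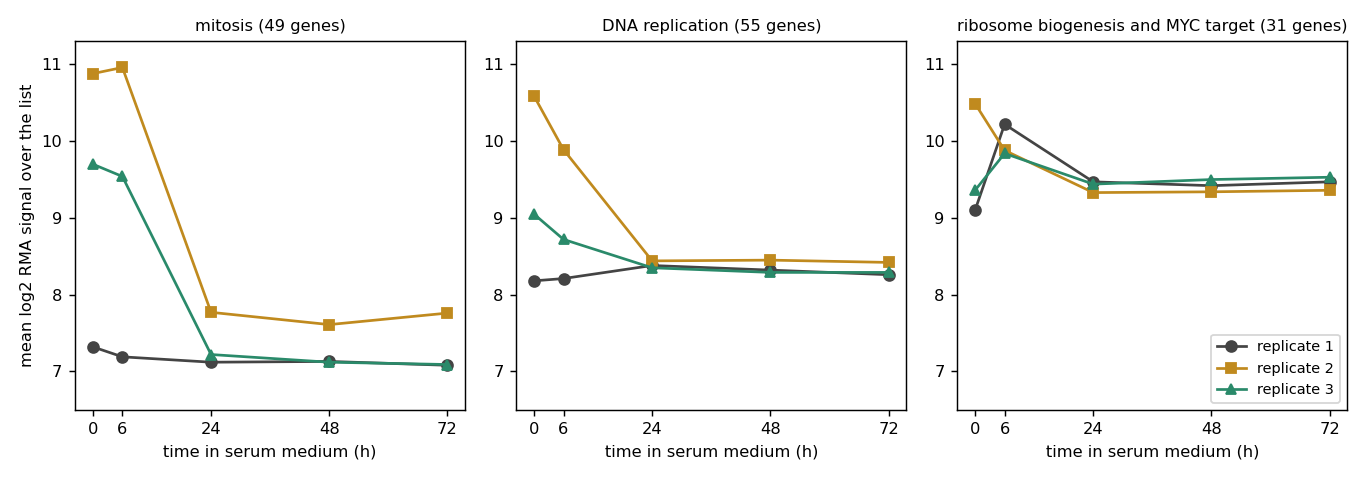
Mean log2 RMA signal over the genes of mitosis, DNA replication and ribosome biogenesis against time in serum medium (h), for replicates 1, 2 and 3 of untreated cells. For mitosis, replicate 1 stays between 7.08 and 7.32 at all times, while replicates 2 and 3 are at 10.88 and 9.70 at 0 h and at 7.77 and 7.22 at 24 h.

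Promoters of 4 of these genes are shown because their lists differ in the elements they carry. The CHR element (TTTGAA or TTCGAA on either strand) is known to be bound by the complex that silences mitotic genes in resting cells, and the E2F site (TTTCCCGC, TTTCGCGC, TTTGCCGC or TTTGGCGC on either strand) by the E2F factors. In the windows from 250 bases before to 50 bases after the start, from RefSeq with build GRCm38.p6, CHR was found for 32 of 39 mitosis genes with a counted promoter (82.1%) and for 12 of 46 genes of DNA replication (26.1%), against 5852 of 27018 genes in all (21.7%). E2F was found for 18 of 46 genes of DNA replication (39.1%) and 3 of 39 mitosis genes (7.69%), against 704 of 27018 genes in all (2.61%). A gene counted when any of its promoters held the motif. Promoters of a chromosome that was set aside entered no promoter count, here or below, so the genes in all are those outside it. A match of letters is a description and not a measured binding site. The promoters below are *Plk1* at chr7:122159185-122159484 (plus strand), *Cdc20*, an activator of the anaphase-promoting complex, at chr4:118437294-118437593 (minus strand), *Ccnb2* at chr9:70421505-70421804 (minus strand) and *Mcm7* at chr5:138171834-138172133 (minus strand, one of 2 promoters). Capitals mark CHR in all of them and, in *Mcm7*, also the E2F sites.
Plk1: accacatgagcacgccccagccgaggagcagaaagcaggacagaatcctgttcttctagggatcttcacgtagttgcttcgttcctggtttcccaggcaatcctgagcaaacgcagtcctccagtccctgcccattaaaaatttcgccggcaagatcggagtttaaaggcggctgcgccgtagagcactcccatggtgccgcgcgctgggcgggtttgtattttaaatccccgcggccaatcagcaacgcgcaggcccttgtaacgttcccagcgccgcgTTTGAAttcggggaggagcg
Cdc20: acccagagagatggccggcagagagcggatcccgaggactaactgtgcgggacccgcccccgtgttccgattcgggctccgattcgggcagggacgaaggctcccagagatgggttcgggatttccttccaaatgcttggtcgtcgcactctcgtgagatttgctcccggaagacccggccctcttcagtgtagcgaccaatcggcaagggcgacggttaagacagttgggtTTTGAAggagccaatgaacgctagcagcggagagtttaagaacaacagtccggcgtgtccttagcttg
Ccnb2: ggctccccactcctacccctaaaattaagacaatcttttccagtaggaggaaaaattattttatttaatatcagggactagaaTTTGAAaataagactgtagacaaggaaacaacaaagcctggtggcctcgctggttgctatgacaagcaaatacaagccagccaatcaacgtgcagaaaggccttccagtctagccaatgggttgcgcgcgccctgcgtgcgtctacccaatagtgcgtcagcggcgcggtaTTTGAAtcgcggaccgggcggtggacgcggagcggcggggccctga
Mcm7: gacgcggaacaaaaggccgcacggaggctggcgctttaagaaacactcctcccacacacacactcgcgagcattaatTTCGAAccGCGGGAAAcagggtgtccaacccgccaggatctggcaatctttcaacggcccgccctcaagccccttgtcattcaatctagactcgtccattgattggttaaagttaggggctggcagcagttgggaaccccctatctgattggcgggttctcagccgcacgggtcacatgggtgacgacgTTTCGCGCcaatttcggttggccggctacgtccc
The CHR match began at base 30 of *Plk1*, base −18 of *Cdc20*, bases −167 and 4 of *Ccnb2* and base −173 of *Mcm7*, counted from the start, and the E2F matches of *Mcm7* began at −165 and 16. *Cdc20* had 7.34, 7.74 and 7.17 at 72 h, against 7.74, 11.16 and 10.01 at 0 h (−2.22 ± 0.773, limma q = 0.0260), and *Ccnb2* had 7.92, 8.70 and 7.80 at 72 h, against 8.73, 12.28 and 11.45 at 0 h (−2.68 ± 0.834, q = 0.0146). *Cdc20* lost the call without any one of the 72 h arrays or without replicate 2 of 0 h (−1.46, q = 0.110).

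Brakes of the cell cycle and p53 targets moved in both directions. Of 22 cyclin-dependent kinase inhibitors, D cyclins and p53 targets, 7 rose (31.8%) and 3 fell (13.6%, against 11.2% of all genes). *Rb1*, the retinoblastoma protein that holds E2F factors in check, had 12.24, 11.84 and 12.11 at 72 h, against 11.29, 10.58 and 11.05 at 0 h (1.09 ± 0.187, limma q = 0.000137). *Btg2*, an antiproliferative gene induced by p53 and by differentiation, had 9.76, 9.49 and 9.73 at 72 h, against 12.09, 10.43 and 12.16 at 0 h (−1.90 ± 0.289, q = 3.87e-05). Its relative *Btg1* fell by 0.71. These 3 genes passed with each array left out. With the block 6 of the list fell, and leaving out replicate 2 of 72 h gave 4 higher and leaving out replicate 1 of 0 h gave 5 lower.

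Among markers of other lineages, those of oligodendrocytes and their precursors fell more often than they rose. Of 23 genes of this lineage, 8 fell (34.8%) and 1 rose, the phosphodiesterase gene *Enpp6* (0.35), which did not pass without replicate 2 or 3 of 72 h or replicate 2 of 0 h. *Olig2*, a transcription factor of progenitors and oligodendrocyte precursors, had 11.01, 10.35 and 11.37 at 72 h, against 12.27, 12.41 and 12.53 at 0 h (−1.49 ± 0.268, limma q = 0.000221). *Cspg4*, which encodes NG2 on oligodendrocyte precursors and pericytes, had 8.36, 8.61 and 8.47 at 72 h, against 10.41, 10.38 and 10.70 at 0 h (−2.01 ± 0.247, q = 2.99e-06). In both genes the 72 h arrays lay below all 0 h arrays. *Sox8* fell by 1.57. *Myt1* fell by 2.18, but missed the threshold when replicate 2 of 72 h (q = 0.0619) or replicate 1 of 0 h (q = 0.0509) was taken out. *Sox10* (7.60, 7.60 and 7.59 at 72 h and 8.25, 7.49 and 7.63 at 0 h) and the myelin gene *Mbp* (7.18, 7.18 and 7.26 at 72 h and 7.80, 7.10 and 7.21 at 0 h) were near the array medians at both times and did not pass. In the fits without replicate 2 of 72 h or replicate 1 of 0 h, 5 of the list fell.

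Of 39 neuronal and neuroblast genes, 8 fell (20.5%, against 11.2% of all genes) and 3 rose (7.69%, against 14.6%). *Reln*, the secreted glycoprotein reelin, rose by 1.75 and the neurexin gene *Nrxn3* by 0.78, and both passed with each array left out. *Dcx*, the neuroblast gene doublecortin, had 9.05, 7.27 and 9.12 at 72 h, against 7.51, 6.91 and 7.18 at 0 h (1.28 ± 0.518, limma q = 0.0489), and it passed without replicate 2 of 72 h alone (q = 0.0103), missing the threshold without any other array (q = 0.0601 to 0.180). None of the 8 falls, of which that of the GABA-synthesising enzyme gene *Gad1* was the largest (−1.15), passed in all of these fits. The block gave 5 higher and 14 lower, and 3 fell without replicate 2 of 72 h or replicate 1 of 0 h. Without replicate 1 of 72 h, 4 fell. *Tubb3* had 7.41, 8.18 and 7.67 at 72 h and 7.46, 7.46 and 7.88 at 0 h, and *Rbfox3* 8.17, 7.61 and 8.10 at 72 h and 8.14, 8.10 and 8.03 at 0 h, with overlapping arrays in both. *Neurod1*, a neuronal transcription factor, had 6.06, 5.29 and 6.14 at 72 h and 5.91, 6.02 and 6.09 at 0 h.

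Few markers of cells from outside the neural lineage passed the test. In the microglial, endothelial, mural and fibroblast lists 5.26%, 8.33%, 9.09% and 13.3% rose, against 14.6% of all genes. In the same order 0%, 0%, 9.09% and 6.67% fell, against 11.2% of all genes. Of 19 microglial genes, 1 rose, the lysozyme gene *Lyz2* (7.43, 8.67 and 7.63 at 72 h, against 6.40, 6.14 and 6.36 at 0 h, limma q = 0.00153), and none fell. The mean over the list was 6.69, 6.71 and 6.67 at 72 h and 7.0, 6.58 and 6.61 at 0 h, and the defining genes *Aif1*, *Itgam*, *Csf1r* and *Cx3cr1* did not pass. The endothelial list averaged 6.88, 6.84 and 6.87 at 72 h and 7.25, 7.0 and 6.83 at 0 h, with 1 of 12 higher, the VEGF receptor gene *Kdr* (0.59), and none lower. *Kdr* did not pass without any one of the 72 h arrays or replicate 3 of 0 h. The mural list averaged 7.28, 7.22 and 7.28 at 72 h and 7.57, 7.25 and 7.27 at 0 h, with *Rgs5*, a regulator of G protein signalling, higher by 0.55 and *Notch3* lower by 1.06. The fibroblast list averaged 7.21, 7.23 and 7.19 at 72 h and 7.19, 6.95 and 6.82 at 0 h. Of its 15 genes *Ogn* rose by 5.21, among the largest rises of the comparison, *Foxc1* rose by 0.83 and *Foxd1* fell by 0.29. Neither *Foxc1* nor *Foxd1* passed without any one of the 72 h arrays. The fibroblast genes *Dcn* (6.16, 6.21 and 6.33 at 72 h and 6.45, 6.02 and 6.26 at 0 h), *Lum* and *Col1a1* did not pass. With the block 6 endothelial and 6 fibroblast genes fell, and without replicate 3 of 0 h 4 and 3 did. In each of these 4 lists replicate 1 had the highest mean of the 0 h arrays.

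Genes of ependymal cells, the ciliated cells that line the ventricles, rose. Of 14 measured, 9 rose (64.3%), 1 fell and the median was 0.61, with list means of 7.96, 7.91 and 7.99 at 72 h, against 7.36, 7.12 and 7.20 at 0 h. *Enkur*, a protein of motile cilia, had 9.27, 9.03 and 9.24 at 72 h, against 5.66, 5.77 and 6.16 at 0 h (3.32 ± 0.243, limma q = 3.08e-09). The dynein light chain gene *Dynlrb2* had 8.53, 9.03 and 8.60 at 72 h, against 7.16, 7.03 and 7.38 at 0 h (1.53 ± 0.263, q = 0.000143). *Foxj1*, the transcription factor that directs motile ciliogenesis, had 10.38, 10.32 and 10.52 at 72 h, against 9.47, 9.20 and 9.57 at 0 h (0.99 ± 0.135, q = 1.06e-05). The 3 genes were higher in every 72 h array. *Mlf1* rose by 1.24 and *Rsph1*, a radial spoke protein, by 0.46 (0.29 without replicate 3 of 0 h), while the adenylate kinase gene *Ak7* fell by 0.40. Of the 9, 8 passed with each array left out.

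Receptors of the interleukin-6 family and their feedback inhibitors were among the genes that rose, and other receptors of the same family fell. Of 27 genes of the JAK-STAT3 pathway, 9 rose (33.3%) and 5 fell (18.5%), with a median of 0.09. *Il6st*, the shared receptor gp130, had 12.99, 13.10 and 12.99 at 72 h, against 11.52, 10.83 and 11.33 at 0 h (1.79 ± 0.162, limma q = 5.43e-08). The feedback inhibitor gene *Socs2* had 10.80, 10.03 and 11.11 at 72 h, against 7.93, 8.44 and 7.80 at 0 h (2.59 ± 0.244, q = 9.38e-08). *Lifr*, the receptor for leukaemia inhibitory factor, had 10.17, 9.98 and 10.14 at 72 h, against 11.11, 10.90 and 11.15 at 0 h (−0.95 ± 0.115, q = 2.46e-06). None of these overlapped between the times. The receptor gene for ciliary neurotrophic factor, *Cntfr*, fell by 0.73, and by 0.48 without replicate 1 of 0 h. *Socs3* rose by 0.90 (q = 0.000714), though a second probe set of the gene gave 0.17 (q = 0.236), and *Stat3* itself rose by 0.37, with 12.17, 12.10 and 12.24 at 72 h and 11.91, 11.65 and 11.84 at 0 h. Of the 9, 8 passed with each array left out. Of the 5 that fell, 3 passed without replicate 2 or 3 of 72 h, or without replicate 1 or 2 of 0 h.

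The promoter of *Gfap* is shown because the gene rose and the window holds a match to the letters of a STAT site. Binding there was not measured, and a link to the rise was not tested. The letters TTCNNNGAA, which read the same on both strands, were found in the promoters of 3 of 24 JAK-STAT3 genes (12.5%), 8 of 50 astrocyte genes (16%) and 2 of 13 reactive astrocyte genes (15.4%), against 2581 of 27018 genes in all (9.55%). The window is at chr11:102897151-102897450 on the minus strand (RefSeq, GRCm38.p6), and capitals mark the match, which begins at base −2 from the start given there.
Gfap: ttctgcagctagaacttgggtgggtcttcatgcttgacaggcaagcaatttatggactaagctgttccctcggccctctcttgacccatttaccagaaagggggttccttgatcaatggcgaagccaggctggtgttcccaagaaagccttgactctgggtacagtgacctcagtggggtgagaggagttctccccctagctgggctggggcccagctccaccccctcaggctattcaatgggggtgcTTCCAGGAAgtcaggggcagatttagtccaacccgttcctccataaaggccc

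BMP pathway genes rose more often than they fell. Of 29, 10 rose (34.5%) and 2 fell, with a median of 0.19, or 0.33 without replicate 1 of 0 h. *Id1*, an inhibitor of basic helix-loop-helix factors and a direct BMP target, had 10.56, 11 and 10.60 at 72 h, against 9.69, 9.01 and 9.42 at 0 h (1.35 ± 0.154, limma q = 1.28e-06). *Id3* had 11.70, 11.97 and 11.72 at 72 h, against 10.76, 10.85 and 10.70 at 0 h (1.03 ± 0.144, q = 1.62e-05). Both were highest at 6 h, with means of 11.24 and 12.25. *Id4* rose by 1.53, and by 0.77 (q = 0.0186) without replicate 2 of 0 h, where it had 8.32 against 10.69 and 10.54 in the other 0 h arrays. The ligand genes moved oppositely, with *Bmp6* at 9.65, 9.66 and 10.10 at 72 h, against 8.24, 7.59 and 7.65 at 0 h (1.97 ± 0.251, q = 4.94e-06), and *Bmp7* at 8.07, 8.30 and 8.14 at 72 h, against 9.87, 11.28 and 10.10 at 0 h (−2.24 ± 0.421, q = 0.000335). *Smad9*, a SMAD of this branch, rose by 1.67.

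The list of contractile genes and SRF targets of the cytoskeleton had more genes that rose than fell. It leaves out the immediate early genes *Egr1*, *Egr2*, *Fos* and *Junb*, which fell. The cardiac actin gene *Actc1*, also outside the list, fell too. Of 26, 12 rose (46.2%), 1 fell and 13 did not pass, with a median of 0.58. The mean over the list was 10.31, 10.77 and 10.42 at 72 h, against 9.65, 9.83 and 9.75 at 0 h. *Acta2*, smooth muscle actin, had 12.16, 12.93 and 12.39 at 72 h, against 8.37, 8.51 and 8.32 at 0 h (4.09 ± 0.356, limma q = 3.31e-08), and its mean was already 12.73 at 6 h. *Myl9*, a regulatory light chain of myosin, had 11.63, 12.39 and 11.60 at 72 h, against 9.22, 9.68 and 9.38 at 0 h (2.45 ± 0.388, q = 6.22e-05). *Actn1*, the actin crosslinker alpha-actinin, rose by 2.02 and the calponin gene *Cnn2* by 1.94. The gene of SRF itself was the one that fell (−0.36, q = 0.0454), and it did not pass without replicate 1 or 3 of 72 h or replicate 2 of 0 h. *Actb*, the cytoplasmic actin often used as a reference gene, had 14.14, 14.15 and 14.14 at 72 h and 14.15, 14.01 and 14.14 at 0 h (q = 0.333). Of the 12 that rose, 11 passed with each array left out.

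Promoters of *Myl9* and *Cnn2* are shown because both genes rose and both windows hold a CArG box, the site SRF is known to bind. Binding there was not measured, and a link to the rises was not tested. The CArG box was found in the promoters of 7 of 23 contractile genes (30.4%), against 488 of 27018 genes in all (1.81%), on either strand. The list was written to hold SRF targets and includes genes that did not pass. Its share of CArG boxes therefore says nothing about which genes rose. *Myl9* is at chr2:156775214-156775513 (plus strand) and *Cnn2* at chr10:79988350-79988649 (plus strand), from RefSeq with GRCm38.p6. Capitals mark the box, which begins at base −161 of *Myl9* and base −56 of *Cnn2*.
Myl9: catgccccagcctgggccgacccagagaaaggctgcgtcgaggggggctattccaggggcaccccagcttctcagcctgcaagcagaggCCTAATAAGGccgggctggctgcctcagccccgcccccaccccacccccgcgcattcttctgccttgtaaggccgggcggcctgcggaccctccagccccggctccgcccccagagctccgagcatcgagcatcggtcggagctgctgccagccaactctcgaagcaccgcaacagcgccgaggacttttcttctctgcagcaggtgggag
Cnn2: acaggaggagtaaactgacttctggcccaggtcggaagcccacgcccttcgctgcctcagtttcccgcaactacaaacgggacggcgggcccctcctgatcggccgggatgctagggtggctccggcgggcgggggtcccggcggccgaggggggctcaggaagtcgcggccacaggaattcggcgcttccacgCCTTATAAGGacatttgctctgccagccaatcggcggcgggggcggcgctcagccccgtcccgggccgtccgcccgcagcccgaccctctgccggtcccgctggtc

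Genes answering to TGF-beta or the YAP coactivator rose in 8 of 21 cases (38.1%) and fell in 1. *Thbs1*, the matrix protein thrombospondin 1, had 11.65, 12.27 and 11.53 at 72 h, against 8.35, 8.01 and 8.26 at 0 h (3.61 ± 0.293, limma q = 1.25e-08). The YAP targets *Ccn1* and *Ccn2* rose by 2.55 and 1.90. All of these were high from 6 h on, with means of 11.65, 11.86 and 10.47 at that time. The extracellular matrix as a whole was split, with 9 of 48 genes higher (18.8%, against 14.6% of all genes) and 9 lower (18.8%, against 11.2%). *Fn1*, fibronectin, had 11.84, 12.29 and 12.04 at 72 h, against 8.38, 10.65 and 9.58 at 0 h (2.52 ± 0.377, q = 3.23e-05), and the metalloproteinase inhibitor gene *Timp2* rose by 2.18. The laminin gene *Lamb1* fell by 1.54 and the fibrillin gene *Fbn2* by 1.22, or by 0.62 without replicate 2 of 0 h. The block gave 16 lower, and without replicates 1 and 2 of 0 h 5 and 14 were lower.

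Most of the lysosomal genes rose. Of 35, 20 rose (57.1%) and 1 fell, with a median of 0.43, and the mean over the list was 10.76, 10.79 and 10.78 at 72 h, against 10.49, 10.23 and 10.54 at 0 h. The protease genes *Ctsl* and *Ctsb* rose by 1.28 ± 0.197 (limma q = 4.12e-05) and 0.94 ± 0.128 (q = 1.07e-05), and the membrane protein gene *Cd63* by 0.97. *Ctsb* had 13.05, 12.93 and 13.20 at 72 h, against 12.22, 11.83 and 12.31 at 0 h. *Npc1*, which exports cholesterol from the lysosome, fell by 0.54. Of the 20, 12 passed with each array left out, and 13 rose without replicate 2 of 72 h. The median was 0.26 without replicate 2 of 0 h. Antioxidant genes and targets of the factor NRF2 rose in 11 of 27 cases (40.7%), and none fell. *Hmox1*, the heme-degrading enzyme, had 11.32, 12.07 and 11.70 at 72 h, against 9.31, 10.32 and 9.72 at 0 h (1.91 ± 0.231, q = 2.46e-06). The glutathione peroxidase gene *Gpx4* rose by 1.2 and *Gclc*, a subunit of the rate-limiting enzyme of glutathione synthesis, by 1.16, and the block gave 3 of the list lower.

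Among metabolic genes, those of glucose use rose more often than they fell, and those of sterol and serine synthesis fell more often than they rose. Of 34 genes of glycolysis and the hypoxia response, 13 rose (38.2%) and 3 fell. *Pfkp*, the platelet type of phosphofructokinase, had 10.74, 10.96 and 10.64 at 72 h, against 7.26, 8.05 and 6.76 at 0 h (3.43 ± 0.320, limma q = 8.43e-08). The glucose transporter gene *Slc2a1* had 12.07, 12.17 and 12.15 at 72 h, against 10.12, 10.90 and 10.32 at 0 h (1.68 ± 0.194, q = 1.43e-06), and *Pfkfb3*, an activator of glycolysis, rose by 1.47. The hexokinase gene *Hk1* had opposite signs in 2 probe sets (−0.19, q = 0.0338, and 0.41, q = 0.0385). Of 15 genes of glycogen metabolism, 7 rose (46.7%) and 2 fell, led by the phosphorylase kinase gene *Phkg1* (10.47, 10.28 and 10.60 at 72 h, against 8.02, 7.54 and 8.11 at 0 h) and the branching enzyme gene *Gbe1* (1.11). The glycolysis list had medians of 0.25, 0.38 and 0.30 within replicates 1, 2 and 3. The block gave 5 of it lower, and 1 was lower without replicate 1 of 72 h or replicate 2 of 0 h.

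Of 21 genes of cholesterol synthesis and uptake, 10 fell (47.6%) and 4 rose, with a median of −0.52. *Lss*, lanosterol synthase, had 9.36, 9.25 and 9.40 at 72 h, against 10.15, 11.36 and 10.61 at 0 h (−1.37 ± 0.242, limma q = 0.000188). *Mvd*, mevalonate diphosphate decarboxylase, had 8.79, 8.85 and 8.95 at 72 h, against 9.64, 10.73 and 10.01 at 0 h (−1.27 ± 0.203, q = 6.85e-05). The late-step enzyme gene *Hsd17b7* rose by 0.89. Replicate 2 of 0 h was the highest array for this list, with a mean of 11.43 against 10.57 and 10.86, and the within-replicate medians were −0.01, −0.93 and −0.29. Leaving out replicate 1 of 0 h gave 2 higher and 13 lower with a median of −0.79, and leaving out replicate 2 of 0 h gave 4 higher and 7 lower with a median of −0.13. Of 28 genes of serine synthesis and ATF4 targets, 11 fell (39.3%) and 3 rose. The amino acid transporter genes *Slc7a1* and *Slc7a5* fell by 1.10 and 0.90, but *Slc7a1* did not pass without replicate 2 of 0 h (−0.42, q = 0.0867) nor *Slc7a5* without replicate 2 of 72 h, and 2 of the 11 falls passed with each array left out. The block gave 17 lower, while 6, 6 and 5 fell without replicates 1, 2 and 3 of 72 h. *Atf3*, a stress-induced transcription factor, had 9.44, 9.38 and 9.6 at 72 h, against 8.34, 8.19 and 7.91 at 0 h (1.33 ± 0.194, q = 2.35e-05). Of 22 genes of fatty acid synthesis and lipid carriers, 7 fell (31.8%) and 4 rose (18.2%, against 14.6% of all genes), among them the elongase gene *Elovl6* (−0.94) and the cholesterol exporter gene *Abca1* (1.52). *Abca1* had 8.94 in replicate 2 of 0 h, against 11.80 and 11.41 in the others, and its rise was 0.64 (limma q = 0.0226) without that array. Of the lipid genes 3 fell without replicate 2 of 72 h, and the block gave 7 higher.

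Retinoid genes included a pair of enzymes that rose. *Aldh1a1*, an enzyme that makes retinoic acid, had 11.16, 11.58 and 11.60 at 72 h, against 7.91, 9.26 and 9.03 at 0 h (2.71 ± 0.411, limma q = 3.71e-05). *Rdh10*, which catalyses the step before it, had 11.47, 11.86 and 11.34 at 72 h, against 9.43, 9.05 and 9.12 at 0 h (2.36 ± 0.193, q = 1.40e-08). Both were higher in every 72 h array. In all 4 of 20 retinoid genes rose (20.0%, against 14.6% of all genes) and 2 fell (10.0%, near the 11.2% of all genes). The list as a whole thus differed little from the background. The falls of the receptor gene *Rxrg* (−1.61) and the reductase gene *Dhrs3* (−1.25) rested on replicates 1 and 3 of 0 h, since replicate 2 had 6.46 and 7.27. Neither passed without replicate 1 of 0 h, and without replicate 3 of 72 h 2 of the list rose.

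Interferon-stimulated genes rose in 9 of 24 cases (37.5%). *Ifit3* had 9.0, 9.10 and 9.20 at 72 h, against 6.18, 6.55 and 6.43 at 0 h (2.71 ± 0.214, limma q = 8.73e-09). *Cxcl10*, a chemokine induced by interferons and NF-κB, had 9.44, 10.26 and 9.85 at 72 h, against 7.32, 7.24 and 6.80 at 0 h (2.73 ± 0.210, q = 6.11e-09). *Ifit2* rose by 1.75, and *Mx2* fell by 0.80. Of 16 complement genes 5 rose (31.2%) and 3 fell (18.8%), with *C4b* at 11.28, 10.75 and 11.39 at 72 h, against 8.02, 7.64 and 7.25 at 0 h (3.50 ± 0.225, q = 5.84e-10). The fluid-phase inhibitor gene *Serping1* and the membrane inhibitor gene *Cd59a* rose by 2.77 and 4.96, and the lectin pathway protease gene *Masp1* fell by 0.96. NF-κB subunits, inhibitors and targets were mostly without a call, with 1 of 19 higher and 2 lower. *Nfkbia*, the inhibitor IκBα and itself an NF-κB target, had 9.71, 9.98 and 9.82 at 72 h and 10.40, 9.78 and 10.02 at 0 h (q = 0.145). *Nfkbiz* fell by 0.82 and *Birc3* by 0.42, and *Traf1* rose by 0.40. *Birc3* missed the threshold without replicate 1 or 3 of 72 h or replicate 1 of 0 h, and *Traf1* passed only when replicate 1 of 0 h was the array left out, while 5 of the list fell without replicate 2 of 0 h. The chemokine and cytokine list had 4 of 27 higher (14.8%, near the 14.6% of all genes), led after *Cxcl10* by *Csf1* (2.10). The 1 lower gene (3.7%, against 11.2%) was *Il33* (−0.91), which did not pass without replicate 2 or 3 of 72 h or replicate 3 of 0 h. Without replicate 2 of 72 h or replicate 3 of 0 h 2 of the list rose, 3 fell without the second of these arrays, and the block gave 5 lower. Among 16 genes of MHC class I and antigen processing 4 rose and 1 fell, with *Tapbp*, the peptide-loading factor tapasin, higher by 1.12, and 2 rose without replicate 2 of 72 h.

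Of 27 apoptosis genes, 8 rose (29.6%, against 14.6% of all genes) and 3 fell (11.1%, near the 11.2% of all genes). The death receptor gene *Fas* had 11.15, 11.09 and 11.02 at 72 h, against 7.49, 7.5 and 7.10 at 0 h (3.73 ± 0.128, limma q = 4.69e-14). *Casp12* had 10.80, 10.99 and 10.83 at 72 h, against 5.93, 7.83 and 7.12 at 0 h (3.91 ± 0.370, q = 9.85e-08), and *Casp4* rose by 1.60. The initiator caspase gene *Casp2* fell by 0.59. The count moved with the arrays used, with 4 of the 8 rises passing in every fit with an array left out, 4 higher without any one of the 72 h arrays, 5 higher and 6 lower without replicate 2 of 0 h, 1 lower without replicate 3 of 72 h, and 10 higher and 7 lower with the block. In the IGF system 4 of 15 rose (26.7%), *Igfbpl1* (1.42), *Igfbp5* (1.37), the adaptor gene *Irs1* (1.04) and *Igf1* (0.73), and none fell, while the block gave 3 lower. The other probe set of *Irs1* did not pass (0.31, q = 0.118). Of 17 intermediate filament and tubulin genes 6 rose (35.3%) and 1 fell (5.88%), the nuclear lamin gene *Lmnb1*, with 8.60, 8.30 and 8.52 at 72 h, against 9.41, 11.38 and 10.33 at 0 h (−1.90 ± 0.393, q = 0.000822), and the block gave 3 lower.

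Genes of signalling between cells moved in both directions, and some of their shares were near those of all genes (14.6% higher, 11.2% lower). These were the higher shares of the WNT, guidance and receptor lists and the lower share of the channel list. In the WNT pathway 8 of 30 fell (26.7%) and 4 rose (13.3%), with the receptor gene *Fzd9* at 8.96, 8.33 and 9.04 at 72 h, against 11.36, 11.65 and 11.55 at 0 h (−2.74 ± 0.251, limma q = 6.43e-08). The receptor gene *Lgr5* fell by 1.97 and the ligand gene *Wnt7b* by 1.91, while *Fzd3*, *Lgr4* and *Fzd8* rose by 1.34, 1.21 and 0.84. Among 34 guidance genes 10 fell (29.4%) and 6 rose (17.6%). *Sema5a* had 7.26, 7.40 and 7.26 at 72 h, against 10.78, 9.05 and 10.70 at 0 h (−2.87 ± 0.270, q = 9.38e-08), and its receptor gene *Plxnb3* fell by 2.35, whereas *Sema3c* and *Sema6d* rose by 1.94 and 1.25. Of 22 glutamate and GABA receptor and transporter genes 4 rose (18.2%), led by the AMPA receptor gene *Gria1* (2.25), and 4 fell (18.2%), led by the GABA transporter gene *Slc6a11* with 11.85, 10.80 and 12.05 at 72 h, against 13.84, 13.25 and 13.53 at 0 h (−1.97 ± 0.282, q = 1.94e-05). The fit without replicate 2 of 72 h gave 2 lower. Among 23 potassium and sodium channel genes 7 rose (30.4%) and 3 fell (13.0%), and none of the falls and 4 of the rises passed with each array left out. Without replicate 2 of 72 h 4 rose and none fell, and without replicate 1 of 72 h 1 fell. Of 18 clock genes 4 rose (22.2%) and 4 fell (22.2%), with the nuclear receptor gene *Rora* higher by 1.14 and *Per1* lower by 0.97.

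The times between were read as a description, since each is set against the same 0 h arrays. *Hspb8* had a mean of 8.2 at 0 h, 13.22 at 6 h and 13.24 at 72 h, so that its level was reached within 6 h. *Gfap* had means of 9.0, 11.5, 13.33, 13.52 and 13.54 at 0, 6, 24, 48 and 72 h. *Clu* climbed later, with 8.98, 9.42, 11.61, 12.58 and 12.83 at the same times. *Serpina3n* was at 7.74, 7.65 and 8.5 at 0, 6 and 24 h, and at 10.91 and 11.68 at 48 and 72 h. *Egr1* was lowest at 6 h, with means of 11.38, 8.13, 8.66, 8.82 and 8.79. *Olig2* and *Egfr* had most of their difference at 6 h, with means of 12.40 and 11.29 for *Olig2* and 12.87 and 11.95 for *Egfr* at 0 and 6 h. *Hes5* had a lower mean at each later time, with 11.23, 10.76, 9.70, 9.30 and 9.06.

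**Figure D5:**
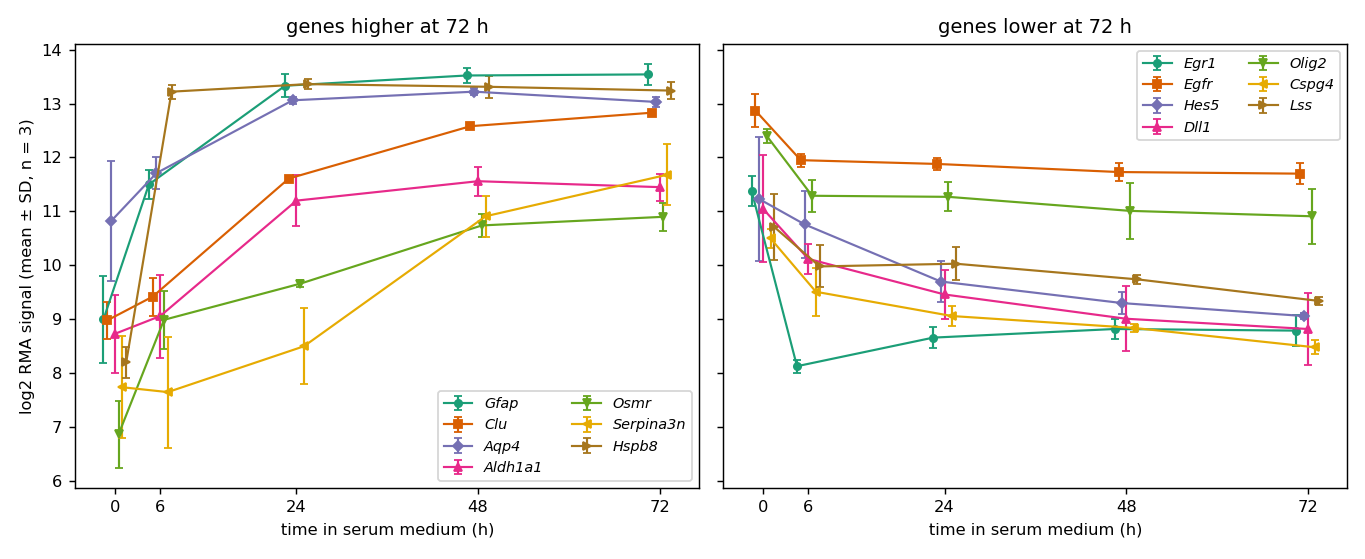
Log2 RMA signal of untreated cells against time in serum medium (h), as mean ± SD of 3 arrays, for 7 genes that were higher and 7 that were lower at 72 h. Points are shifted slightly along the time axis so that error bars can be told apart. *Hspb8* is at 13.22 by 6 h, while *Serpina3n* reaches 10.91 at 48 h, and *Egr1* is at 8.13 by 6 h.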

How the data were processed

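Untreated neural progenitors at 0 and 72 h (3 arrays each) were compared on Affymetrix MoGene 1.0 ST arrays. The deposited values are log2 signals that the authors made with RMA (background correction, quantile normalization and a summary per probe set) from the oligo package in R 3.3.1, per the labels. The version of oligo is not given in the sources used here. All 26 arrays of the 9 groups, including 11 arrays of cells treated with TNF at 50 ng/mL, entered a linear model of group means (limma 3.58.1 in R 4.3.3), so that all groups shared 1 estimate of the spread, and 72 h minus 0 h was taken as a contrast. Storey q-values (smoothed over lambda from 0.05 to 0.95) were computed over all 35556 probe sets. No filter on dim probe sets was applied, and no detection calls or depth were at hand, so the number of arrays limits the precision. A gene was read from its single-symbol probe set with the highest mean. Of 35556 probe sets, 21789 had 1 symbol, 1621 several and 12146 none, and 21698 of the first matched RefSeq genes of GRCm38.p6 by Entrez ID. Gene coordinates are not given beyond the promoters, which came from RefSeq.

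Named genes were the 15 highest and 15 lowest called genes without overlap between arrays. Added to them were up to 3 members of each list in each direction, genes the study follows and defining markers of each cell type. They were 243 in all, of which 116 rose and 101 fell. *Lcn2*, *S1pr3*, *Cp*, *Timp1*, *Spry2*, *Cdc20*, *Mcm7*, *Cnn2*, *Enpp6*, *Kdr*, *Birc3*, *Traf1* and *Il33*, among others outside the rule, were chosen after their values were seen. The members and the gene lists were chosen with earlier results of these data known.

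Same-numbered arrays deviated together (r of 0.258, 0.227 and 0.201 for replicates 1, 2 and 3, against −0.229 to −0.0123 for different numbers), each over the 0.1 that was required, so the replicate numbers were taken to pair the arrays, although the labels say nothing of a shared origin. The main fit did not use this pairing, which entered only the fits with the replicate block. Alternatives were other thresholds, adjustments, sets of arrays, scalings, array weights, the replicate block, probe set rules and each array left out. The script was checked on simulated data.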

Additional observations from a re-analysis of the deposited data

How the results depend on the processing

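The 6 arrays limit the precision, and the 0 h arrays differ in their cell division genes, so counts over those genes depend on the fit. Leaving out single arrays gave 2179 to 3072 genes higher at 72 h than at 0 h and 1381 to 2905 genes lower at 72 h than at 0 h, 1 to 45 mitosis genes lower and 2 to 42 DNA replication genes lower. The replicate block gave 3635 genes higher and 4078 lower, so that 47.1% of the calls were higher against 56.6% without it, with 43 mitosis and 32 DNA replication genes lower. It removed no call among the 217 named genes that passed, and it added *Aldh1l1*, *Myh11* and *Cdh5*. With the 6 arrays alone, 1522 genes were higher and 631 lower, 1 mitosis and 0 DNA replication genes were lower, 16 astrocyte genes were higher and 8 ERK feedback genes were lower. The block with these 6 arrays gave 1411 higher and 682 lower, with 22 mitosis and 3 DNA replication genes lower. Array weights, whose estimation stopped before it converged, gave 4477 higher and 4296 lower, with 46 mitosis and 40 DNA replication genes lower. A q-value under 0.01 left 1941 genes higher and 1100 lower, with 1 mitosis and 2 DNA replication genes. A log2 difference of at least 1 left 782 and 387, with 15 astrocyte genes higher, and Benjamini-Hochberg adjustment left 4 mitosis and 9 DNA replication genes lower. Leaving out the lowest 40% of probe sets, using single-symbol probe sets alone, or averaging the probe sets of a gene gave 32, 34 and 33 mitosis genes and 24, 26 and 24 DNA replication genes lower. The cause of these differences was not tested, beyond fewer arrays or probe sets and stricter thresholds.

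Among named genes, 113 of the 217 that passed did so under all 20 alternatives and 166 with each of the 6 arrays left out. Signs turned only in genes without a call or with probe sets that disagree. *Fabp7* had −0.01 with array weights and −0.00 to 0.07 with arrays left out, *Hk1* had 0.11 as a mean of its probe sets, and with arrays left out *Neurod1* ranged over −0.33 to 0.09, *S100b* over −0.28 to 0.21 and *Sox2* over −0.26 to 0.07.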
